A study of Homo sapiens with 26 samples.

Results

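Ribosome footprints on 9 genes of the p53, CDK inhibitor and RB pathways were followed across 3 human cell lines. The genes were taken by symbol: MDM2, MDM4, CDKN1A, CDKN1B, CDKN2A, CDKN2B, RB1, BAX and E2F1. They are 9 of the 19478 coding sequences in each of the 4 deposited count tables, and each symbol matched 1 row. Values are footprint counts per coding sequence, given as CPM, the count scaled to the library's total over all coding sequences. A CPM per kilobase of coding sequence (RPKM) is used only where levels of different genes are set side by side.

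The study made 26 ribosome profiling libraries to compare ways of removing ribosomal RNA. Cells were lysed with cycloheximide, which holds ribosomes on the mRNA, and RNase I left the fragments that ribosomes cover. HEK293T was used for 8 libraries of 15 to 35 nt, with 2 each of undepleted, Ribo-Zero Gold, RiboCop and NEBNext. HEK293FT gave 2 libraries of 15 to 35 nt, 1 undepleted and 1 depleted with custom oligos. K562 was used in 2 experiments. In its kit experiment, at 20 to 34 nt, FastSelect, riboPools, cold-eluted riboPools and no depletion had 2 libraries apiece. Its 4 Ribo-Zero Plus libraries were 1 with the kit alone, 1 with oligos, 1 with formaldehyde and 1 with both. The size experiment held 1 undepleted and 1 NEBNext library at 20 to 34 nt and at 20 to 60 nt. Both libraries titled undepleted in the size experiment also carry a label that names NEBNext, and they were grouped by title. NEBNext and Ribo-Zero Plus digest ribosomal RNA with a nuclease, and the other methods pull it out or block it. The labels name no treatment that activates p53.

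The p53 protein is a transcription factor that switches on genes for cell cycle arrest and cell death. MDM2 marks p53 for destruction, MDM4 holds its activity down, and ARF, one of the products of CDKN2A, inhibits MDM2. CDK inhibitors keep the RB protein in the form that binds E2F transcription factors, so that genes for DNA replication stay off. K562 is a chronic myeloid leukaemia line known to lack functional p53 and to have lost the CDKN2A locus. HEK293 cells carry adenoviral E1A, which binds RB, and E1B, which acts on p53. HEK293T and HEK293FT also carry SV40 large T antigen, which binds both proteins.

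Library totals ran from 120019 to 421521 counts in HEK293T, were 900763 and 5747772 in HEK293FT, and ran from 46858 to 5795774 in K562. At these depths 3 counts, taken here as the floor, were worth between 0.518 and 64.0 CPM in K562. The lines were checked against marker lists. The 12 erythroid and haematopoietic genes summed to 0 to 15 CPM in HEK293T, 3.33 to 4.002 CPM in HEK293FT and 3996 to 13080 CPM in K562. The 9 epithelial and neural markers of HEK cells did not mark off the HEK lines as a sum, with 567 to 912 CPM in HEK293T, 386 to 417 CPM in HEK293FT and 829.5 to 1428 CPM in K562. Of these 9, 6 were at or under 3 counts over all K562 libraries, whereas others such as KRT8 and KRT18 were not. Among 3 T cell markers CD2 was at the floor in K562, but CD3D and CD3E together reached 8.57 to 40.8 CPM. All 3 were at 0 counts in both HEK lines. Nothing in the labels says that the libraries of a group came from separate cultures, so p-values measure the spread between these libraries, which may be technical. The effect of a line and that of its experiment cannot be told apart, nor can fragment size where K562 is compared, and in bulk samples fewer cells with a message cannot be told apart from less of it per cell.

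The CDKN2 genes come first, because their sequences bear on what the counts can separate. CDKN2A and CDKN2B lie next to each other on the minus strand of chromosome 9 (GRCh38, 21967753 to 21994624 and 22002903 to 22009363). CDKN2A encodes the INK4 inhibitor p16 and, in another reading frame, ARF. CDKN2B encodes the related inhibitor p15. The CDKN2A row of the tables is ENST00000579755.1, whose 396 nt coding sequence is the ARF form. Of these bases, 203 (51.3%) are also coding in the p16 transcript ENST00000304494.9 and 193 are not. Footprints in the shared exon are counted for this row whichever frame was read, so p16 and ARF cannot be told apart.

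Coding sequence that occurs in more than 1 gene also limits what a footprint can be assigned to. Of all 28 nt windows of coding sequence in GENCODE 29, 70 of 369 (19.0%) in CDKN2A and 74 of 387 (19.1%) in CDKN2B occur in the other gene. How the authors assigned such reads is not given in the sources used here, so the values of both genes are uncertain to that extent. MDM4 had 4 shared windows of 1443, E2F1 had 8 of 1284, shared with E2F2, and the remaining 5 members had 0.

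CDKN2A had the highest CPM of the 9 members in both HEK lines and no footprint in K562. The loss of the locus in K562 is part of the description by which these genes were picked, so its absence is a description and supports nothing further. The lowest, median and highest of the 8 HEK293T libraries were 104, 146 and 173 CPM. The HEK293FT libraries had 203 CPM undepleted and 203 CPM with custom oligos, from 183 and 1167 counts. All 16 K562 libraries had 0 counts among 27561047. The lines therefore did not overlap. Against the floor of 3 counts over the 4 undepleted K562 libraries, undepleted CDKN2A was at least 99.6-fold higher in HEK293T and at least 163-fold higher in HEK293FT. Over all libraries made without a nuclease kit these bounds were 1247-fold and 1666-fold.

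CDKN2B was lower than CDKN2A in HEK cells and likewise at 0 counts in all 16 K562 libraries. It ranged from 11.9 to 37.5 CPM in HEK293T, with a median of 18.3 CPM, and had 43.3 and 35.1 CPM in the undepleted and custom oligo libraries of HEK293FT. Every HEK library held at least 2 counts of it. The bounds over libraries without a nuclease kit were at least 159-fold for HEK293T and at least 297-fold for HEK293FT. Per kilobase, CDKN2A exceeded CDKN2B by 8.18-fold in HEK293T (95% interval of the counts, 5.54 to 12.5) and by 5.86-fold in HEK293FT (5.10 to 6.75).

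The neighbours of both genes were read as a list fixed by position. Between FOCAD and CAAP1 the tables hold 25 rows, of which 6 had at least 10 counts over the HEK libraries. KLHL9, MTAP, CDKN2A, CDKN2B and ELAVL2 were at 0 counts in every K562 library, and the sixth, TUSC1, had 1 count against 119 in HEK cells. DMRTA1, between CDKN2B and ELAVL2, had 9 counts in HEK cells and 2 in K562. MTAP, a methionine salvage enzyme, had 67.6 CPM in HEK293T and 75.7 CPM in HEK293FT over libraries without a nuclease kit. KLHL9, a ubiquitin ligase adaptor, had 77.0 and 63.8 CPM. On one side of this stretch FOCAD had 65 counts over all K562 libraries. Over those without a nuclease kit it had 2.28 CPM, 26.2-fold lower than the 59.6 CPM of HEK293T. MLLT3, beyond FOCAD, had 5 counts in K562 and 33.5 CPM in HEK293T. On the other side CAAP1, PLAA and IFT74 were present in K562 with 490, 1424 and 657 counts. CAAP1 was 2.24-fold lower in K562 than in HEK293T and PLAA 1.71-fold. Of the 9667 coding sequences with at least 50 counts in the HEK libraries, 227 (2.35%) were at 0 counts in all K562 libraries.

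**Figure D1:**
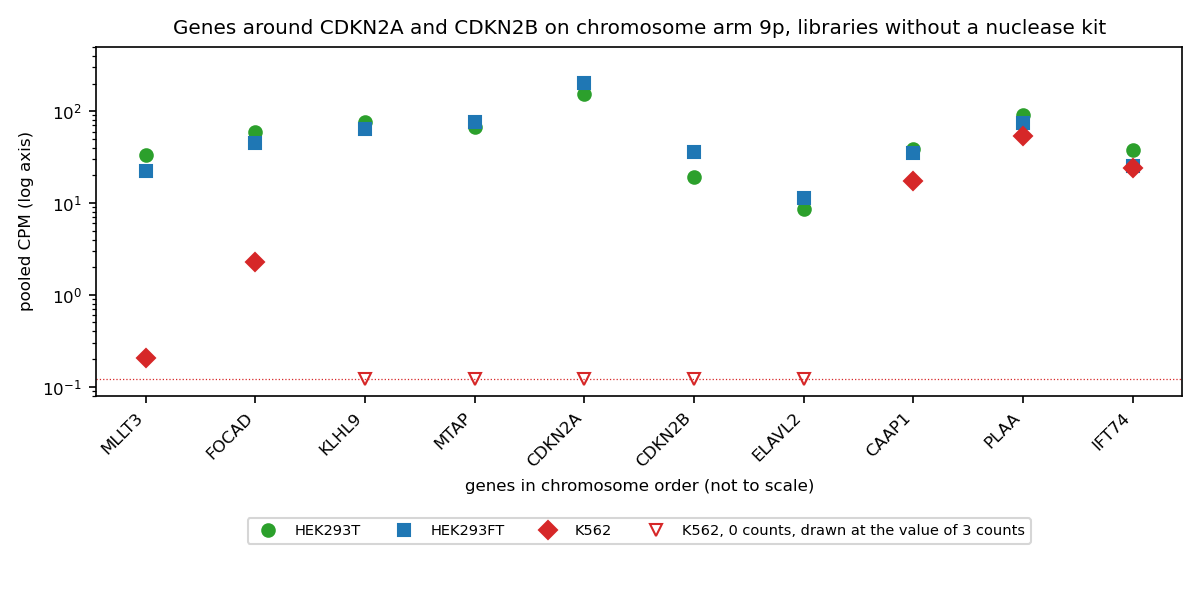
Pooled CPM (log axis) of 10 genes in chromosome order around CDKN2A and CDKN2B, over the libraries without a nuclease kit of HEK293T (circles), HEK293FT (squares) and K562 (diamonds). Open triangles mark 5 genes with 0 counts in K562, drawn at the value of 3 counts, and the K562 values of CAAP1, PLAA and IFT74 lie near those of the HEK lines. TUSC1 and DMRTA1 are not drawn.

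CDKN2A also differed between the HEK lines. Undepleted HEK293T libraries had 150 and 104 CPM (127 ± 32.3, SD, n = 2), both below the 203 CPM of the undepleted HEK293FT library. The edgeR log2 fold change of HEK293FT against HEK293T was 0.84 ± 0.27 (SE, adjusted p 0.0341), in a comparison where 6.7% of 5551 genes were called. With total count scaling the adjusted p was 0.0948. It was 0.0692 and 0.536 without the first or second HEK293T library and 0.0522 without the first undepleted K562 library of the kit experiment. Over 11 alternatives it ran from 3.73e-06 to 0.536. Over all libraries without a nuclease kit the difference was 0.57 ± 0.11 (edgeR adjusted p 3.73e-06) and CDKN2B differed by 1.06 ± 0.28 (adjusted p 0.00158), with 21.8% of 10356 genes called. RB1 was the third member called there, and is described with its own values.

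The plot of CPM by library shows all members in all 26 libraries. The 3 shallow Ribo-Zero Plus libraries with additions, each under 200000 counts, scatter widely for the low genes.

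**Figure D2:**
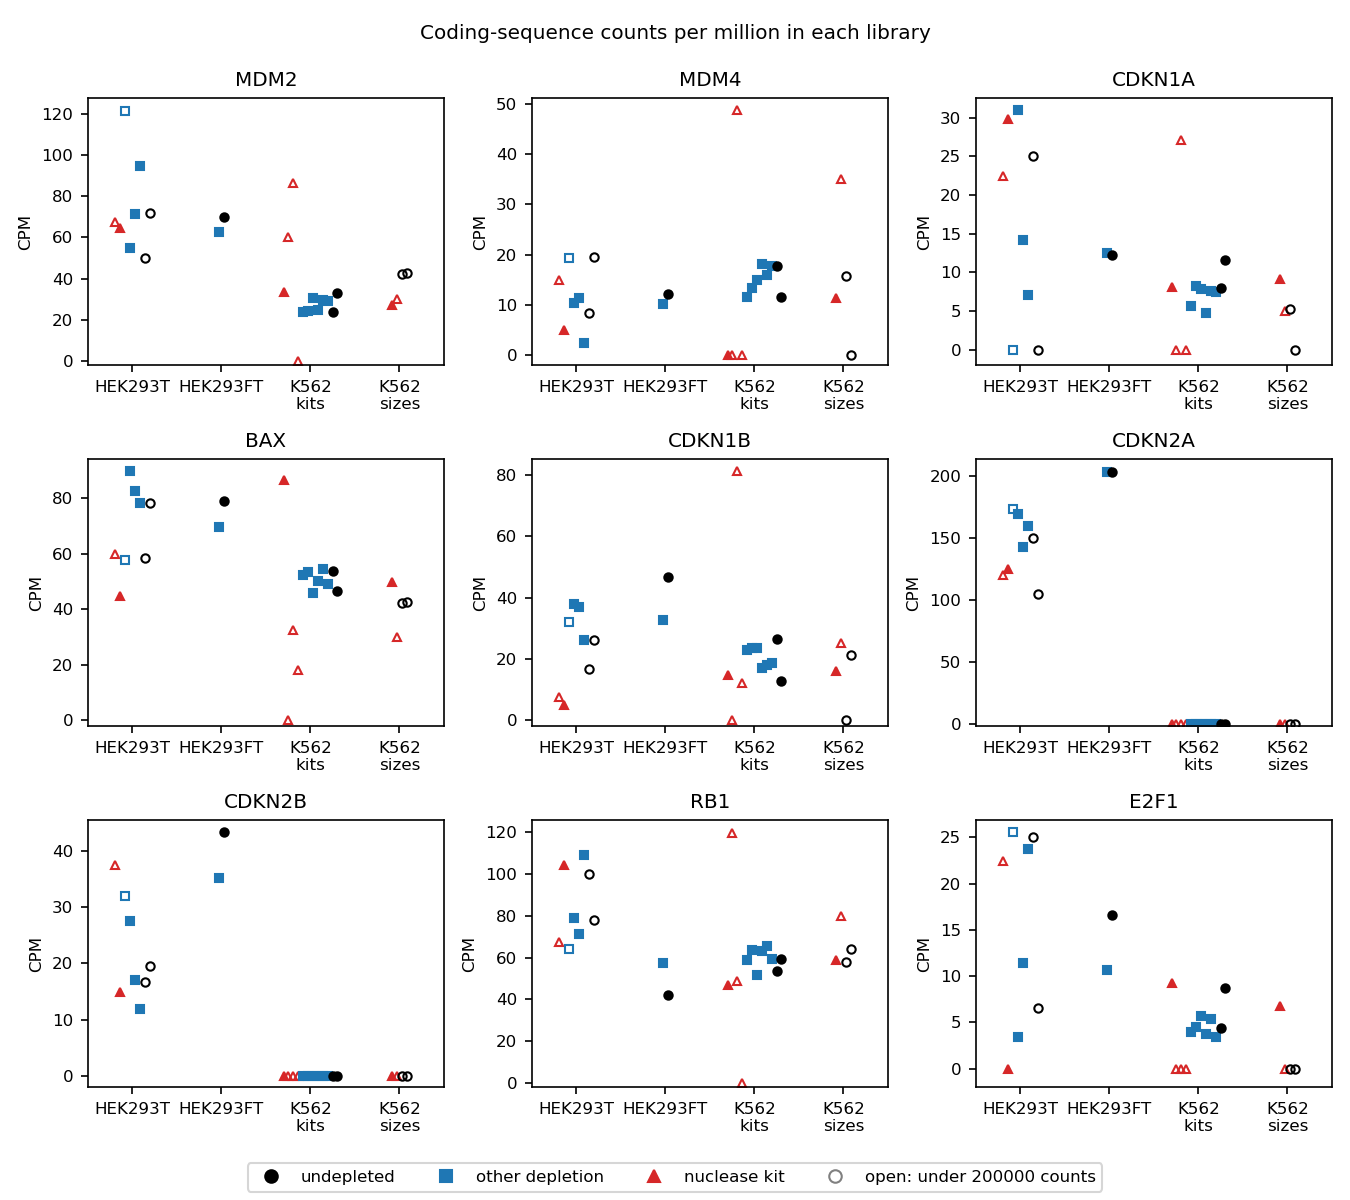
CPM of each member in each library, by table, with undepleted libraries as black circles, nuclease kits as red triangles and other depletion as blue squares. Open symbols are libraries under 200000 counts. CDKN2A and CDKN2B sit at 0 in every K562 library, and MDM2 in K562 libraries without a nuclease kit sits below every HEK library.

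In the fit of the 7 undepleted libraries 4 of the 9 members passed the filter on low counts: MDM2, CDKN2A, RB1 and BAX. Of these, CDKN2A alone was called in K562 against HEK293T, where 44.2% of all 5551 genes tested were called. Against HEK293FT 3 were called, CDKN2A, MDM2 and BAX, where 60.3% of the genes were. In the fit of all 18 libraries without a nuclease kit all 9 members were tested. Then 6 of 9 were called against HEK293T, beside 68.4% of 10356 genes, and 9 of 9 against HEK293FT, beside 80.8%. The members' shares are read against these. They include CDKN2A, and in the larger fit CDKN2B. Both had 0 counts in K562 and passed the filter through the HEK libraries alone. The loss of the CDKN2A locus was part of how the genes were picked, so these calls support nothing further. In the larger fit MDM2, MDM4, BAX and E2F1 were also called against HEK293T, and CDKN1A, CDKN1B and RB1 were not. Libraries of 1 experiment may share their cells, so the p-values of the larger fit may be too small.

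MDM2 (ENST00000258149.9, chromosome 12, 68808176 to 68850686), the ubiquitin ligase for p53 and itself a p53 target, was lower in K562. Undepleted libraries had 49.99 and 71.7 CPM in HEK293T (60.8 ± 15.3, SD, n = 2), 69.9 CPM in HEK293FT, and 23.8 and 32.9 CPM in the K562 kit experiment. Both undepleted libraries of the size experiment had 42.1 and 42.7 CPM. Over the libraries without a nuclease kit the lowest, median and highest values were 49.99, 71.4 and 122 CPM in HEK293T and 23.8, 29.2 and 42.7 CPM in K562. The highest K562 value rests on 2 counts, in a library where 3 counts are worth 64.0 CPM, and the kit experiment alone reached 32.9 CPM. The K562 range does not overlap with that of HEK293T, nor with the 69.9 and 62.8 CPM of HEK293FT. The share of all genes that stand apart in this way was not counted, and 68.4% of 10356 were called against HEK293T in these libraries. With the nuclease kits the lines overlapped: HEK293T with NEBNext had 67.5 and 64.7 CPM. K562 with Ribo-Zero Plus had 86.6 CPM with oligos and 59.96 CPM with formaldehyde, from 16 and 7 counts. In undepleted libraries the log2 fold change was -1.25 ± 0.28 against HEK293FT (edgeR adjusted p 3.47e-05) and -0.95 ± 0.44 against HEK293T, which did not pass (0.0665). The call against HEK293FT was lost by DESeq2 (adjusted p 0.166), the highest of 12 alternatives that went down to 5.51e-23. Without a nuclease kit it was -1.22 ± 0.16 against HEK293T (edgeR adjusted p 2.31e-12) and -1.07 ± 0.10 against HEK293FT (5.51e-23).

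MDM4 (ENST00000367182.7, chromosome 1, 204516383 to 204558120), the inhibitory partner of MDM2, did not follow it. Its counts were low, with 15 over the 6 HEK293T libraries without a nuclease kit, 69 in HEK293FT and 385 in K562. Pooled, these are 10.0 CPM (95% interval of the counts, 5.62 to 16.6), 10.4 CPM (8.07 to 13.1) and 15.6 CPM (14.1 to 17.3). Single libraries overlapped, at 2.37 to 19.5 CPM in HEK293T and 0 to 18.1 CPM in K562. The HEK293T interval holds the K562 value. After TMM scaling MDM4 was called higher in K562, with log2 fold changes of 0.91 ± 0.36 against HEK293T (edgeR adjusted p 0.0173) and 0.71 ± 0.19 against HEK293FT (0.000381). In undepleted libraries it fell under the filter. Per kilobase, MDM2 exceeded MDM4 by 7.69-fold in HEK293T (4.48 to 14.2), 6.06-fold in HEK293FT (4.69 to 7.93) and 1.75-fold in K562 (1.54 to 1.98). The interval for K562 lies below both others, and the intervals of the HEK lines overlap. These intervals cover counting error only.

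CDKN1A and BAX are classical p53 targets. CDKN1A (ENST00000405375.5, chromosome 6, 36678710 to 36687337) encodes the CDK inhibitor p21. It had 24.996 and 0 CPM in the undepleted HEK293T libraries, from 3 and 0 counts, and 12.2 CPM in HEK293FT. The 4 undepleted K562 libraries had 7.93, 11.6, 5.26 and 0 CPM. These values overlap. Over libraries without a nuclease kit the pooled level was 13.4 CPM in HEK293T (95% interval of the counts, 8.18 to 20.7), 12.5 CPM in HEK293FT and 7.27 CPM in K562 (6.25 to 8.42). The log2 fold change was -0.59 ± 0.37 against HEK293T, which did not pass (edgeR adjusted p 0.150), and -0.64 ± 0.22 against HEK293FT, which did (0.00449).

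BAX (ENST00000345358.11, chromosome 19, 48954877 to 48961798), a pore-forming protein of the cell death pathway, was present in every line. Undepleted libraries had 58.3 and 78.2 CPM in HEK293T, 78.8 CPM in HEK293FT, and between 42.1 and 53.7 CPM in K562 (46.2 ± 5.36, SD, n = 4). Without a nuclease kit the highest K562 library had 54.6 CPM and the lowest HEK293T library 57.6 CPM, a narrow gap before TMM scaling. With the nuclease kits the lines overlapped: HEK293T with NEBNext had 60.0 and 44.8 CPM, and K562 with Ribo-Zero Plus alone 86.4 CPM. The share of all genes with such a gap was not counted. Undepleted BAX was lower in K562 than in HEK293FT by -0.69 ± 0.23 on the log2 scale (edgeR adjusted p 0.00691). This call was lost without the second undepleted library of the kit experiment (0.0720) and by DESeq2 (0.350), and over its 12 alternatives the adjusted p ran from 0.000322 to 0.350. Against HEK293T it was -0.38 ± 0.38 (edgeR adjusted p 0.427) in undepleted libraries and -0.33 ± 0.15 (0.0399) without a nuclease kit.

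CDKN1B (ENST00000228872.8, chromosome 12, 12717124 to 12722371) encodes the CDK inhibitor p27, which is controlled largely by destruction of the protein. Undepleted libraries had 16.7 and 26.1 CPM in HEK293T, 46.6 CPM in HEK293FT, and 26.4, 12.6, 0 and 21.3 CPM in K562. HEK293T and K562 overlapped. Without a nuclease kit CDKN1B was lower in K562 than in HEK293FT by -0.68 ± 0.13 on the log2 scale (edgeR adjusted p 6.39e-07), and -0.36 ± 0.24 against HEK293T did not pass (0.173). Per kilobase it exceeded CDKN1A by a similar factor in each line: 1.91 in HEK293T (1.10 to 3.40), 2.29 in HEK293FT (1.77 to 2.97) and 2.24 in K562 (1.88 to 2.67). The 3 intervals overlap.

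RB1 (ENST00000267163.4, chromosome 13, 48303726 to 48481890) encodes the RB protein, which CDKs inactivate by phosphorylation. Undepleted libraries had 99.98 and 78.2 CPM in HEK293T, 42.2 CPM in HEK293FT, and between 53.7 and 64.0 CPM in K562 (58.7 ± 4.24, SD, n = 4). K562 thus lay between the HEK lines. Neither difference passed in undepleted libraries, with log2 fold changes of -0.52 ± 0.34 against HEK293T (edgeR adjusted p 0.212) and 0.40 ± 0.27 against HEK293FT (0.188). Without a nuclease kit RB1 was higher in K562 than in HEK293FT by 0.28 ± 0.099 after TMM scaling (edgeR adjusted p 0.00733). In CPM these lines overlapped, as K562 ran from 51.5 to 65.5 CPM and the custom oligo library of HEK293FT had 57.4 CPM. In the same set RB1 was lower in HEK293FT than in HEK293T by -0.50 ± 0.16 (edgeR adjusted p 0.0140). The HEK293T libraries of that set ran from 64.0 to 109 CPM and both HEK293FT libraries, at 42.2 and 57.4 CPM, lay below them. The share of all genes with such a gap was not counted, and 21.8% of 10356 were called in that comparison. In undepleted libraries the log2 fold change of HEK293FT against HEK293T was -0.92, which did not pass.

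E2F1 (ENST00000343380.5, chromosome 20, 33675683 to 33686404, minus strand) encodes an activating E2F factor that RB binds. The promoters of E2F1 and other cell cycle genes are known to hold sites for E2F itself. The words TTTGGCGC, TTTCGCGC, TTTCCCGC and TTTGCCGC were searched on both strands in RefSeq windows from 250 bases before to 50 after each start (GRCh38.p14). They occurred in 1164 of 35116 windows (3.315%). The window of E2F1 held 2, at -33 and -20 from the RefSeq start, and did not overlap. The window at the start of MDM2 held 1, and no word was found in the windows of the other 7 members. For RB1 and CDKN2A the RefSeq windows lie elsewhere than the start of the counted transcript. The E2F1 window is shown because E2F1 differed between the lines, with the matching words in capitals:
E2F1 chr20:33686336-33686635, minus strand: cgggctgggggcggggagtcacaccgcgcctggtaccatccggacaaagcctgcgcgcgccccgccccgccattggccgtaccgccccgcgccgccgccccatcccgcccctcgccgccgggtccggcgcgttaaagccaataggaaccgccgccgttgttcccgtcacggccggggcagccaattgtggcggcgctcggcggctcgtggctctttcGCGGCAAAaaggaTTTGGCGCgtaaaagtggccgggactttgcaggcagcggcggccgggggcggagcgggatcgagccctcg
A match describes the letters of the window and is not a measured binding site.

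E2F1 was low everywhere and lower in K562. Undepleted libraries had 24.996 and 6.52 CPM in HEK293T, from 3 and 1 counts, 16.7 CPM in HEK293FT, and 4.40, 8.72, 0 and 0 CPM in K562. Single libraries overlap. Pooled over libraries without a nuclease kit, E2F1 had 15.4 CPM in HEK293T (95% interval of the counts, 9.77 to 23.1), 11.4 CPM in HEK293FT (9.01 to 14.3) and 4.55 CPM in K562 (3.75 to 5.48). The log2 fold change was -1.46 ± 0.38 against HEK293T (edgeR adjusted p 0.00032) and -1.19 ± 0.24 against HEK293FT (1.73e-06). Per kilobase, RB1 exceeded E2F1 by 6.28-fold in K562 (5.18 to 7.68), 2.62-fold in HEK293T (1.67 to 4.28) and 2.28-fold in HEK293FT (1.78 to 2.96). The interval for K562 does not overlap with either of the others.

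**Figure D3:**
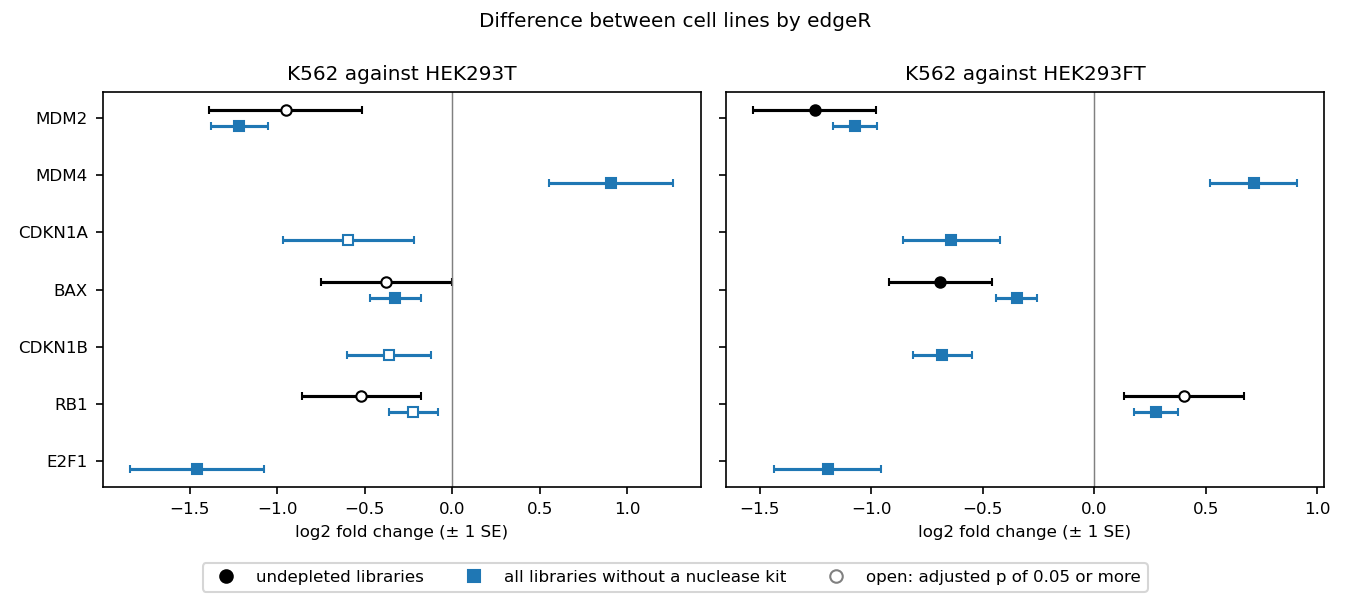
Log2 fold changes ± 1 SE by edgeR of K562 against each HEK line for 7 members, in the undepleted libraries (black circles, where the gene passed the filter) and in all libraries without a nuclease kit (blue squares). Open symbols did not pass an adjusted p of 0.05. MDM2, E2F1, CDKN1A, CDKN1B and BAX lie below 0 and MDM4 above 0 against both lines, and RB1 lies on either side of 0.

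Ordered by RPKM over libraries without a nuclease kit, CDKN2A led in HEK293T at 384 RPKM, followed by BAX at 135 and MDM2 at 52.6 RPKM. CDKN1B (51.9), CDKN2B (46.9), RB1 (30.8) and CDKN1A (27.2 RPKM) came next, and E2F1 (11.8) and MDM4 (6.83 RPKM) were last. In K562 BAX led at 88.7 RPKM, followed by CDKN1B at 33.1, RB1 at 21.8 and MDM2 at 18.6 RPKM. CDKN1A (14.8), MDM4 (10.6) and E2F1 (3.47 RPKM) followed. Neighbours in these orders were set against the larger of their SDs between libraries. In HEK293T CDKN2A and BAX stood apart from the gene after them, and the neighbours from MDM2 to MDM4 did not. In K562 BAX stood apart from CDKN1B and MDM4 from E2F1, and the neighbours from CDKN1B to MDM4 did not.

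Other genes of the pathways were taken from lists by function. Of 30 further p53 targets, 21 were tested over libraries without a nuclease kit. In K562 against HEK293T 8 were higher, 7 lower and 6 not called. The called share of 71.4% stood beside 68.4% of all genes, and the median log2 fold change was -0.17 beside -0.01 over all genes. GDF15 was the highest of the 21 as fitted and also at its lower bound (log2 4.83), so setting it to the bound could not move the median. Against HEK293FT 9 were higher and 9 lower, or 85.7% beside 80.8% of all genes. The lower genes included PERP, a membrane protein of the cell death response, with 2 counts in K562 and 93.8 CPM in HEK293T, a ratio of 1154 whose counting interval is 314 to 9622. TIGAR, a regulator of glycolysis, had 2.36 against 42.2 CPM (log2 fold change -3.84). PMAIP1, which encodes the BH3-only protein NOXA, had 2.60 against 29.5 CPM (-3.19), and SESN1, a stress-induced regulator of mTORC1, had 3.74 against 27.5 CPM (-2.57). The higher genes included GDF15, a stress cytokine, with 57.1 CPM in K562 and 0 counts in both HEK lines of these libraries. Against 3 counts over each line it was at least 28.4-fold and 126-fold higher in K562 than in HEK293T and HEK293FT. GADD45A, which acts in growth arrest, had 89.0 against 10.7 CPM (3.33), PLK3 10.4 against 2.01 CPM (2.59) and FDXR, a mitochondrial reductase, 77.6 against 23.4 CPM (2.005).

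Of 26 genes of RB and cell cycle control, 25 were tested over the same libraries, and in K562 against HEK293T 13 were higher and 6 lower (median 0.51). This is 76% called, beside 68.4% of all genes. CCND3, a D-type cyclin, had 287 CPM in K562 and 50.9 CPM in HEK293T (log2 fold change 2.77). TFDP2, a partner of E2F factors, had 112 against 28.1 CPM (2.26), CDKN1C, which encodes the CDK inhibitor p57, 19.5 against 6.03 CPM (1.95), and CCND1 82.9 against 31.5 CPM (1.67). CDKN2C, the INK4 gene for p18 on another chromosome, was the most reduced, at 2.44 against 27.5 CPM (-3.18). E2F5 (-1.03), E2F7 (-0.79) and the INK4 target CDK4 (-0.76) were also lower. CDK4 had 109.5 CPM in K562 and 226 CPM in HEK293T, and CDK6 97.7 and 54.9 CPM (1.10). Against HEK293FT 14 of the 25 were higher and 6 lower, or 80% called beside 80.8% (median 0.27 beside -0.04 over all genes).

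All 8 replication genes taken as E2F targets were tested, and 4 were higher and 1 lower in K562 against HEK293T without a nuclease kit (median 0.13). This is 62.5% called, under the 68.4% of all genes. TYMS, thymidylate synthase, had 423 against 207 CPM (1.31), CDT1, a licensing factor, 254 against 143 CPM (1.11) and TK1 248 against 165 CPM (0.86). PCNA was called higher after TMM scaling (0.19), although its CPM, scaled to library totals, was lower, at 485 against 518 CPM. RRM1, a ribonucleotide reductase subunit, was lower, at 213 against 425 CPM (-0.72). CDC6 and RRM2 did not pass. In the BCL2 family, to which BAX belongs, 5 of 13 genes were tested, and 2 were higher and 2 lower against HEK293T, or 80% called beside 68.4% of all genes. BCL2L1, which encodes the anti-apoptotic BCL-XL, had 94.5 CPM in K562 and 8.71 CPM in HEK293T (3.70), and MCL1 189 against 178 CPM (0.37). BAD (-1.17) and BAK1 (-0.64) were lower, and BID (0.31) did not pass. Against HEK293FT 3 of the 5 were higher, BID (0.60) among them, and 2 lower, or 100% called beside 80.8%.

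In undepleted libraries alone fewer genes of these lists passed the filter. Of 9 p53 targets 3 were higher (GDF15, GADD45A and FDXR) and 1 lower (PERP) in K562 against HEK293T. Of 16 genes of RB and cell cycle control 5 were higher and 2 lower, and of 8 E2F targets 3 were higher and 2 lower. These shares stand beside the 44.2% of all genes called. The medians of the 3 lists were 0.26, 0.01 and 0.12, beside -0.01 over all genes. For the p53 targets this has the opposite sign to the median without a nuclease kit, over fewer genes, and for RB and cell cycle control it lies near 0.

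**Figure D4:**
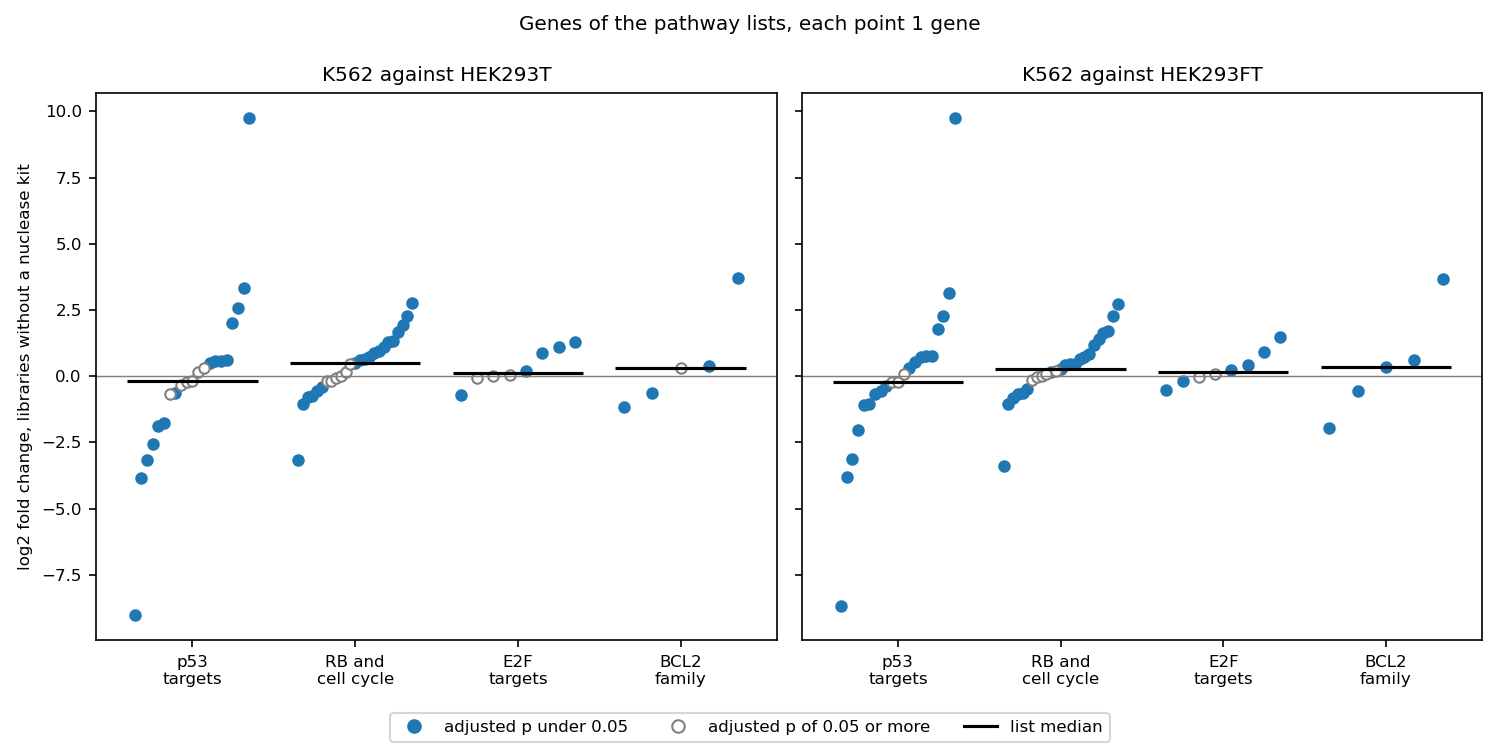
Log2 fold changes of K562 against HEK293T (left) and HEK293FT (right) by edgeR over libraries without a nuclease kit, each point 1 gene of a list, sorted within the list. Filled points passed an adjusted p of 0.05 and bars are list medians. Of the 4 lists drawn, which leave out the neighbours on 9p, the p53 targets have both the lowest point, PERP, and the highest, GDF15, whose fitted values rest on 2 and 0 counts in one of the lines and are no measure of size.

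Whether depletion altered the members was asked within each experiment. In HEK293T 4 members passed the filter (MDM2, CDKN2A, RB1 and BAX), and 0 were called for any kit by edgeR or by DESeq2, with 0 at an unadjusted p under 0.05 by either. Over all 4410 genes 3.24% were called with NEBNext and 0.068% with Ribo-Zero Gold. RiboCop gave 0% by edgeR and 0 genes by DESeq2, with 195 at an unadjusted edgeR p under 0.05. The CDKN2A log2 fold changes were -0.00 ± 0.34, 0.28 ± 0.28 and 0.45 ± 0.30 for NEBNext, Ribo-Zero Gold and RiboCop. Of MDM2 they were 0.10 ± 0.47, 0.43 ± 0.39 and 0.34 ± 0.43, so differences of these sizes lay within the error. CDKN1B, under the filter, had 1 count in each NEBNext library, or 7.50 and 4.97 CPM, below the 6 other libraries at 16.7 to 37.9 CPM. Left unfiltered, it did not pass (edgeR adjusted p 0.810). CDKN1B was singled out here after its values were seen, and the share of all genes with such a gap was not counted. The K562 size experiment did not show this gap. There CDKN1B had 15.9 and 25.04 CPM with NEBNext, from 7 and 5 counts. The undepleted libraries had 0 and 21.3 CPM, from 0 and 1 counts.

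In the K562 size experiment, whose libraries had 46858 to 441249 counts, RB1 was the only member that passed the filter on low counts. It had 58.9 and 80.1 CPM with NEBNext and 57.8 and 64.0 CPM without, and the log2 fold change of 0.17 ± 0.53 did not pass (edgeR adjusted p 0.936, with 2.72% of 3715 genes called). The NEBNext effect was also compared between K562 and HEK293T by an interaction term. Of the 4 members in that fit 0 were called by edgeR and 0 had an unadjusted p under 0.05, beside 0.296% of 4736 genes. CDKN2A carries no information there, being at 0 counts in K562.

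In the K562 kit experiment 7 members were tested, and 0 were called with cold-eluted riboPools, standard riboPools or FastSelect by edgeR or DESeq2, with 0 at an unadjusted p under 0.05. Over all 9761 genes 0.0205% were called with FastSelect, 0.082% with riboPools and 0.225% with cold elution. RB1 had 53.7 and 59.1 CPM undepleted, 58.7 and 63.9 with FastSelect, 51.5 and 63.0 with riboPools, and 65.5 and 59.4 CPM with cold elution. Its log2 fold changes were 0.12 ± 0.16, 0.04 ± 0.16 and 0.14 ± 0.14. BAX kept between 45.8 and 54.6 CPM in these 8 libraries. MDM2 kept between 23.8 and 32.9 CPM there.

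Ribo-Zero Plus was used for 1 library per condition, so no test was made. The library with the kit alone had 1840190 counts and 0 of them on MDM4, where the undepleted level of 14.8 CPM would give 27.2 counts. The upper 95% limit of that 0 is 2.005 CPM, below the 10.1 to 20.8 CPM of the pooled undepleted libraries. With oligos added, MDM4 had 9 counts, or 48.7 CPM, and with formaldehyde or both it had 0 counts, where 1.72 and 2.44 counts would be at the undepleted level. BAX with the kit alone had 159 counts, or 86.4 CPM, 1.72-fold above undepleted (1.34 to 2.21). No other member of that library had an interval apart from 1: MDM2 stood at 1.20-fold (0.827 to 1.73), RB1 at 0.830-fold (0.623 to 1.10), CDKN1B at 0.739-fold (0.439 to 1.22), CDKN1A at 0.841-fold (0.403 to 1.71) and E2F1 at 1.43-fold (0.664 to 3.13). The libraries with additions did not move one way. In the library with oligos CDKN1B stood at 4.09-fold (2.11 to 7.52), MDM4 at 3.30-fold (1.39 to 7.07) and MDM2 at 3.08-fold (1.66 to 5.41), from 15, 9 and 16 counts. With formaldehyde RB1 stood at 2.13-fold (1.13 to 3.71) from 14 counts, and BAX had 0 counts, which allows up to 0.639-fold. With both, MDM2 and RB1 had 0 counts, which allows up to 0.818-fold and 0.403-fold. MDM2 and RB1 thus each lay above undepleted in one of these libraries and below it in another. The intervals with additions that are not given here held 1. These libraries had no replicate, and MDM4 and BAX were singled out after their values were seen.

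**Figure D5:**
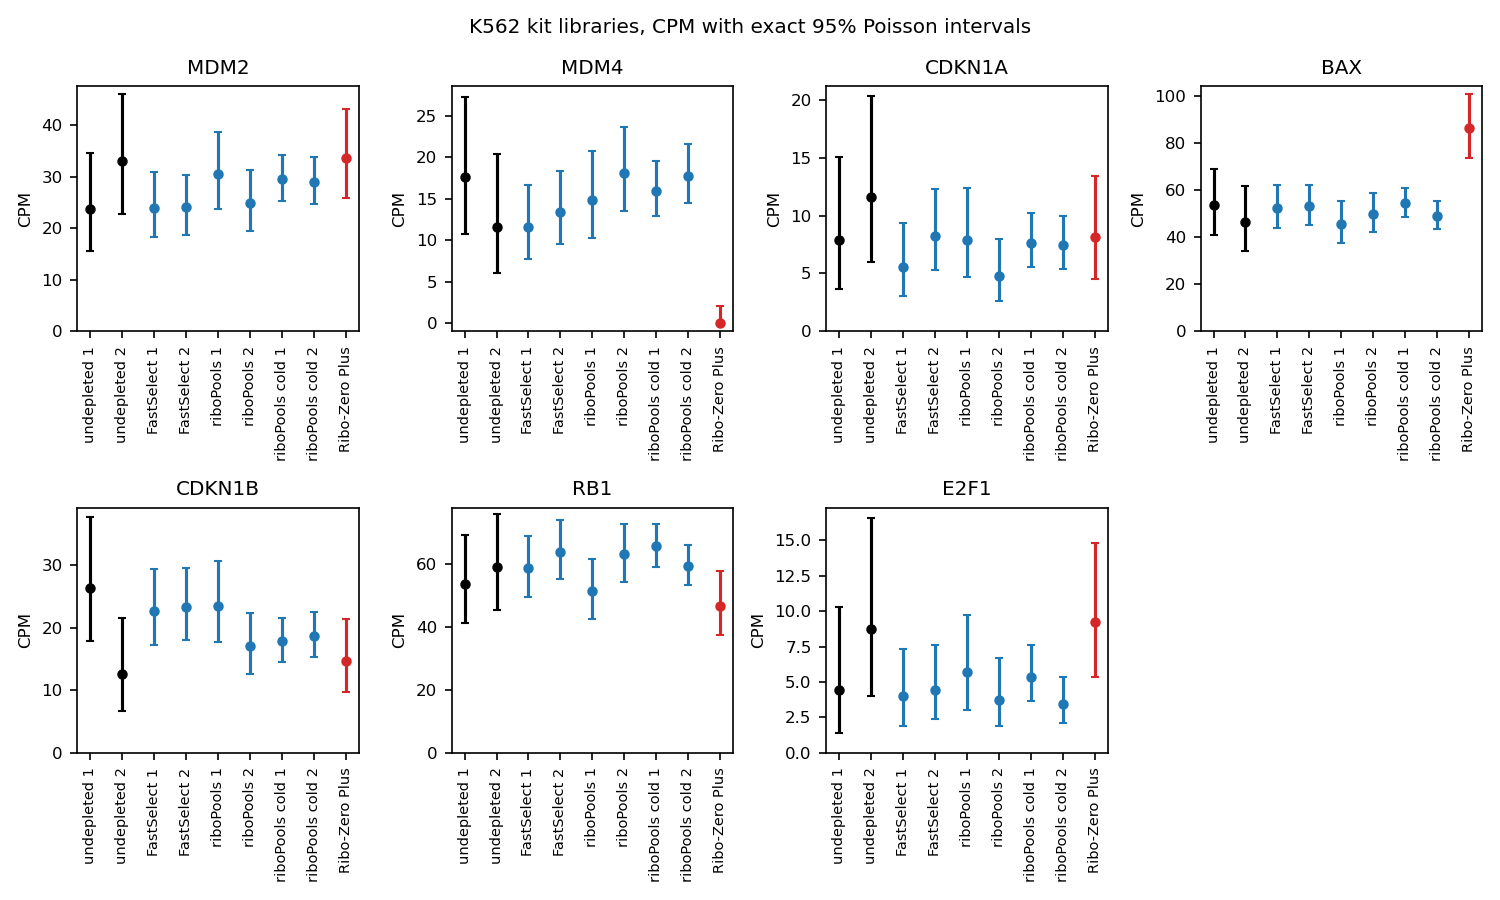
CPM of 7 members in 9 libraries of the K562 kit experiment, with exact 95% Poisson intervals of each count. Undepleted is black, FastSelect and riboPools are blue and Ribo-Zero Plus alone is red. MDM4 is at 0 counts and BAX at 86.4 CPM with Ribo-Zero Plus, and the Ribo-Zero Plus intervals of the other 5 members overlap those of both undepleted libraries.

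HEK293FT had 1 library of each kind. MDM2 had 62.8 CPM with custom oligos and 69.9 CPM without, a ratio of 0.898 (0.686 to 1.19). CDKN2A gave a ratio of 0.999 (0.854 to 1.17), BAX 0.881 (0.683 to 1.15) and RB1 1.36 (0.971 to 1.96). CDKN1B was the member with an interval just under 1, at 0.698 (0.497 to 0.9999), chosen after its values were seen.

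The genes whose pattern over the 26 libraries was most like a member's were found by Pearson's r of log2(CPM + 1) over the 4590 genes that averaged 50 counts or more. For CDKN2A they were ALDH7A1 (0.999), UBE2C (0.998) and ZNF503 (0.998), and for CDKN2B UBE2C (0.991), FOXC1 (0.991) and ALDH7A1 (0.990). CDKN2A and CDKN2B are at 0 counts in every K562 library, so values of r this high follow the split between K562 and the HEK lines. They do not give the level of the other genes in K562. For MDM2 they were ANLN (0.955), LUC7L (0.953) and HIF1A (0.951), for RB1 SETD2 (0.967) and for BAX RUFY1 (0.966). MDM4, CDKN1A, CDKN1B and E2F1 had no gene above 0.787 (CDKN1B with ZNHIT6). The libraries share cell line and depth, so these values describe the tables and carry no test.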

How the data were processed

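Ribosome footprints were sequenced from 26 libraries, and the counts deposited by the authors are whole reads on 1 transcript's coding sequence per row. The submitters' processing notes name CASAVA 1.8, STAR, GRCh38 and hg38, with no role or order. The annotation and the handling of reads that match several genes are not given in the sources used here. The deposited RPM tables hold the same rows and were not used. Libraries were grouped by their titles. The members and the gene lists were chosen with earlier results of these data known.

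The quasi-likelihood test of edgeR 4.0.16 in R 4.3.3 was run on TMM-scaled counts. Low genes were removed by filterByExpr (minimum count 10), p-values were adjusted by Benjamini-Hochberg over all genes tested, and a gene was called at an adjusted p under 0.05. Cell lines were compared in 1 fit of the 7 undepleted libraries with a term per line, in which the lone HEK293FT library is assumed to vary like the others. Kits were compared within each table. The K562 size experiment had depletion and size as additive terms, and the 4 Ribo-Zero Plus libraries, 1 per condition, were only described. A second fit took the 18 libraries without a nuclease kit. Other alternatives were total count scaling, DESeq2 size factors, DESeq2 1.42.0, no filter, leaving out libraries, and a replicate block.

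Pooled CPM sums counts over libraries, with exact 95% Poisson intervals. Such intervals and floors cover counting error alone, since PCR copies of 1 molecule may be counted as separate reads. Fold bounds are against 3 counts over the K562 group. Ratios between genes are per coding length with exact conditional binomial intervals. Transcript positions and coding lengths are from GENCODE 29, 1-based, matched on the identifier without its version (99.8% of rows, 97.36% with the same version, RB1 with another). All members are named. Of the lists, up to 4 called genes per direction with the largest absolute change are named. For pattern likeness the 3 genes of highest r were found for members with at least 200 counts. All 3 are named for CDKN2A, CDKN2B and MDM2, and fewer for the other members. CDK6, CD3D, CD3E, TUSC1, DMRTA1 and list genes that did not pass were named after their values were seen. Protein sequences were not used here, and 1 gene of the E2F target list is not reported here by name.

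Replicate pairs differed by a chi-square per degree of freedom between 1.027 and 1.205. The RiboCop pair, at 1.027, did not differ detectably beyond the sampling noise (p 0.103, chi-square test over 4378 genes), but its totals of 156200 and 290502 counts and its barcodes differ, so both were kept.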

Additional observations from a re-analysis of the deposited data

How the results depend on the processing

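The number of members called between lines changed with the alternatives. Every number for K562 includes CDKN2A, whose absence there was part of how the genes were picked. K562 against HEK293T gave 1 in undepleted libraries, 2 with total count scaling, 2 with no filter, 2 without the size-selection libraries, 6 over all libraries without a nuclease kit, and 1 to 2 when each undepleted library was left out. K562 against HEK293FT gave 3, and 1 with DESeq2, 6 with no filter, 5 without the size-selection libraries, 9 without a nuclease kit and 2 to 6 on leaving out libraries. HEK293FT against HEK293T gave 1, and 0 with total count scaling, 3 without a nuclease kit and 0 to 1 on leaving out libraries; DESeq2 gave no adjusted p for any member there. The fits without 1 shallow library tested up to 9 members rather than 4. Of 143 values of single members under alternatives, 129 kept direction and side of the threshold, 5 passed it, 7 lost it and 2 turned direction. The BAX difference between K562 and HEK293T was 0.0036 without the second HEK293T library (log2, from -0.4525 to 0.0036 on leaving out libraries). MDM2 in HEK293FT against HEK293T was -0.1456 without a nuclease kit and 0.30 in undepleted libraries. The cause was not tested.

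Over all genes, DESeq2 called 1523, 1442 and 99 genes in the 3 comparisons of lines, where edgeR called 2453, 3348 and 372. Total count scaling moved the median of K562 against HEK293T from -0.01 to -0.16 and its split from 1213 higher and 1240 lower to 992 and 1503; for HEK293FT against HEK293T the split moved from 239 and 133 to 168 and 238. NEBNext calls fell with DESeq2 from 143 to 58 genes in HEK293T and from 101 to 17 in K562, where total count scaling gave 60. The fit of all 12 libraries of the kit experiment called 0 genes with FastSelect, riboPools and cold elution, where the 8 libraries gave 2, 8 and 22. With the replicate block 0 members were called in the HEK293T and K562 kit experiments, as without it. The titles' numbers were not taken to pair libraries. The deviations of same-numbered libraries correlated at 0.0650 to 0.137 in HEK293T and -0.0490 to 0.0204 in K562, and groups had 2 libraries. All 6 values in HEK293T were above 0, so a weak shared effect is possible there. Leaving out a library of the K562 size experiment left no residual degree of freedom and gave no value. Depth limits MDM4, CDKN1A, CDKN2B and E2F1 most, with 10 counts or fewer in every HEK293T library.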
